A study of Mus musculus with 111 samples.

Results

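The comparison described here is R6/2 against wild-type (WT) mice at 6 weeks of age, in striatal cells that carried neither GLT1 nor CD11b on their surface. It rests on 10 of the 111 arrays of the series, 5 labelled R62 (samples 6 to 10) and 5 labelled WT (samples 1 to 5), chosen by genotype, age and sorted fraction alone. R6/2 mice express a fragment of human huntingtin with an expanded glutamine repeat from a transgene, and the controls are WT mice. Each sample was a pool of the striata of the mice of 1 genotype in a litter, with the tissue next to the ventricle removed before dissociation, per the labels' protocols. GLT1 is the glutamate transporter of astrocytes and CD11b an integrin of microglia, so this negative fraction holds the cells left over by both gates. Sex is not named in the labels. Samples of the same fraction at 12 weeks (6 R6/2 and 5 WT) and of the astrocyte and microglia fractions at 6 weeks (5 R6/2 and 5 WT each) are used for comparison. RNA was measured on Affymetrix arrays, and all levels below are log2 array signal. A log2 difference of 1 is a doubling. Of 18194 genes with a probe set of their own, 12480 were bright enough to be tested, and calls were made at a limma adjusted p (Benjamini-Hochberg over these genes) under 0.05. The p-values measure the spread between litter pools, not between single mice, and the number of arrays limits the precision.

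R6/2 is a fast model of Huntington's disease, in which the repeat-bearing fragment forms inclusions in nuclei and alters transcription in neurons and glia. The striatum is the region that degenerates first in the disease. Cells of the striatum that carry neither marker include those of blood vessels, oligodendrocytes and their precursors, and neurons.

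The marker genes of the WT negative fraction were those of several cell types. Oligodendrocyte markers averaged 12.04 ± 0.09 (SD, n = 5), neuroblast markers 11.06 ± 0.22, endothelial markers 10.74 ± 0.25 and pericyte and smooth muscle markers 10.73 ± 0.11, while genes of medium spiny neurons, the main striatal neurons, averaged 6.83 ± 0.20. Endothelial markers were at 6.79 ± 1.04 in the WT astrocyte fraction and 6.23 ± 0.24 in microglia. The sort left RNA of astrocytes behind: astrocyte markers averaged 9.76 ± 0.54 in the negative fraction, between 12.37 ± 0.06 in astrocytes and 8.11 ± 0.23 in microglia. Slc1a2, which encodes GLT1, lay between 10.74 and 11.65 in the 5 WT samples and between 10.75 and 11.33 in the 5 R6/2 samples. Itgam, which encodes CD11b, was at or below 3.47 in all 10 and was too dim to be tested. The mouse Htt probe set read 8.30 to 8.54 in WT and 8.41 to 8.61 in R6/2 samples, and it does not check the human transgene.

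Both groups held an array that stood apart. In R6/2 sample 7 the endothelial markers averaged 8.42, against 10.48 to 10.92 in the other R6/2 samples and 10.47 to 11.03 in WT. In WT sample 3 the microglia markers averaged 8.30, against at most 6.31 in the other WT samples and 6.44 in R6/2, and Xist was at 5.71 against at least 11.48 in the other 9 samples. Pericyte and smooth muscle markers ran from 10.64 to 10.91 in WT and from 9.88 to 10.61 in R6/2 samples, so all 5 R6/2 values were below all 5 WT values. Astrocyte markers were 9.98, 9.35, 10.25, 9.03 and 10.16 in WT samples 1 to 5 and 10.07, 10.07, 10.20, 10.25 and 9.88 in R6/2 samples 6 to 10, which overlap. No member of these 4 marker lists was called. Their median log2 differences were -0.47 for 22 endothelial, -0.44 for 17 pericyte and smooth muscle, 0.33 for 21 astrocyte and -0.54 for 10 microglia markers, beside 0.01 for all genes tested. Without R6/2 sample 7 the endothelial median was 0.02 and the pericyte and smooth muscle median -0.26, and without WT sample 3 the microglia median was -0.06. In such pools fewer cells of a type and less RNA per cell cannot be told apart. With the endothelial marker mean as a covariate 46 genes were called at 6 weeks, 35 of them among the 47 called below. With the astrocyte marker mean, a fit added after seeing the data, 33 were called and 29 were among the 47. The part of the pericyte and microglia marker shifts was not tested beyond the values given without an array.

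**Figure D1:**
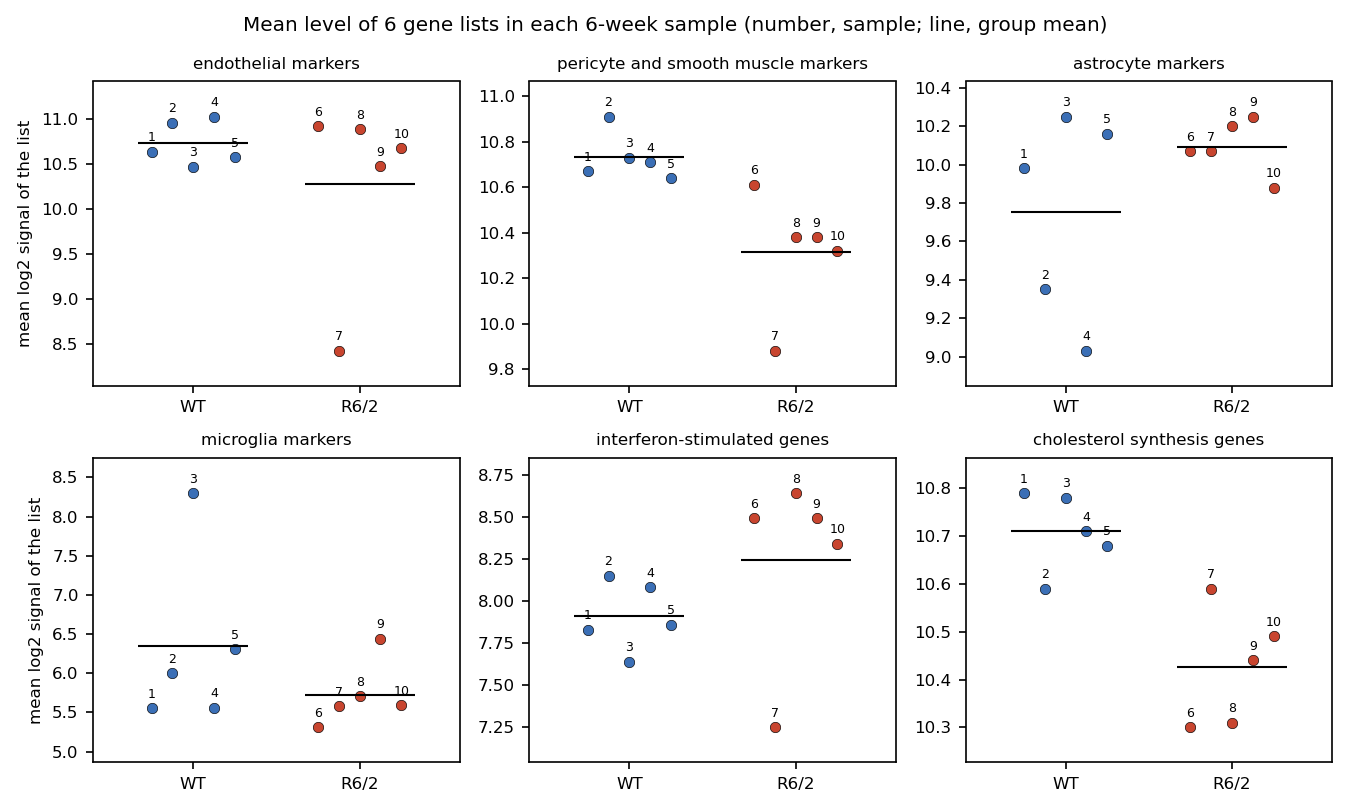
Mean log2 signal of 6 gene lists in each 6-week sample of the negative fraction, WT in blue and R6/2 in red, with the sample number above each point and a line at the group mean. R6/2 sample 7 is low for endothelial markers (8.42) and interferon-stimulated genes (7.25), and WT sample 3 is high for microglia markers (8.30).

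At 6 weeks 47 genes were called, 43 higher (0.345% of the genes tested) and 4 lower (0.0321%) in R6/2. The log2 differences of the higher genes ran from 0.36 to 2.11 with a median of 1.14, and 26 of them exceeded a doubling. In 41 of the 43 all 5 R6/2 values lay above all 5 WT values, and in all 4 lower genes they lay below. Over all genes tested, 422 (3.38%) were above and 180 (1.44%) below without overlap, and 53.1% of all differences were positive. Before adjustment, 862 genes had p below 0.05, 516 of them higher. When each of the 21 arrays of the fit was left out in turn, 22 genes kept their call throughout and 25 lost it at least once. The count was 29, 27, 31, 23 and 26 without WT samples 1 to 5, and 26 and 22 without R6/2 samples 8 and 9. The called genes had 27 further probe sets, of which 14 were bright enough, and all 14 had the sign of the one used. Among the dim ones, 1 each of Eya4, Prune2, Snhg11 and Atp8a2 had the other sign (-0.04, -0.03, -0.05 and -0.12). The other dim ones had the same sign, with values near 0 for Scel (0.02) and Kcnk5 (-0.03).

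**Figure D2:**
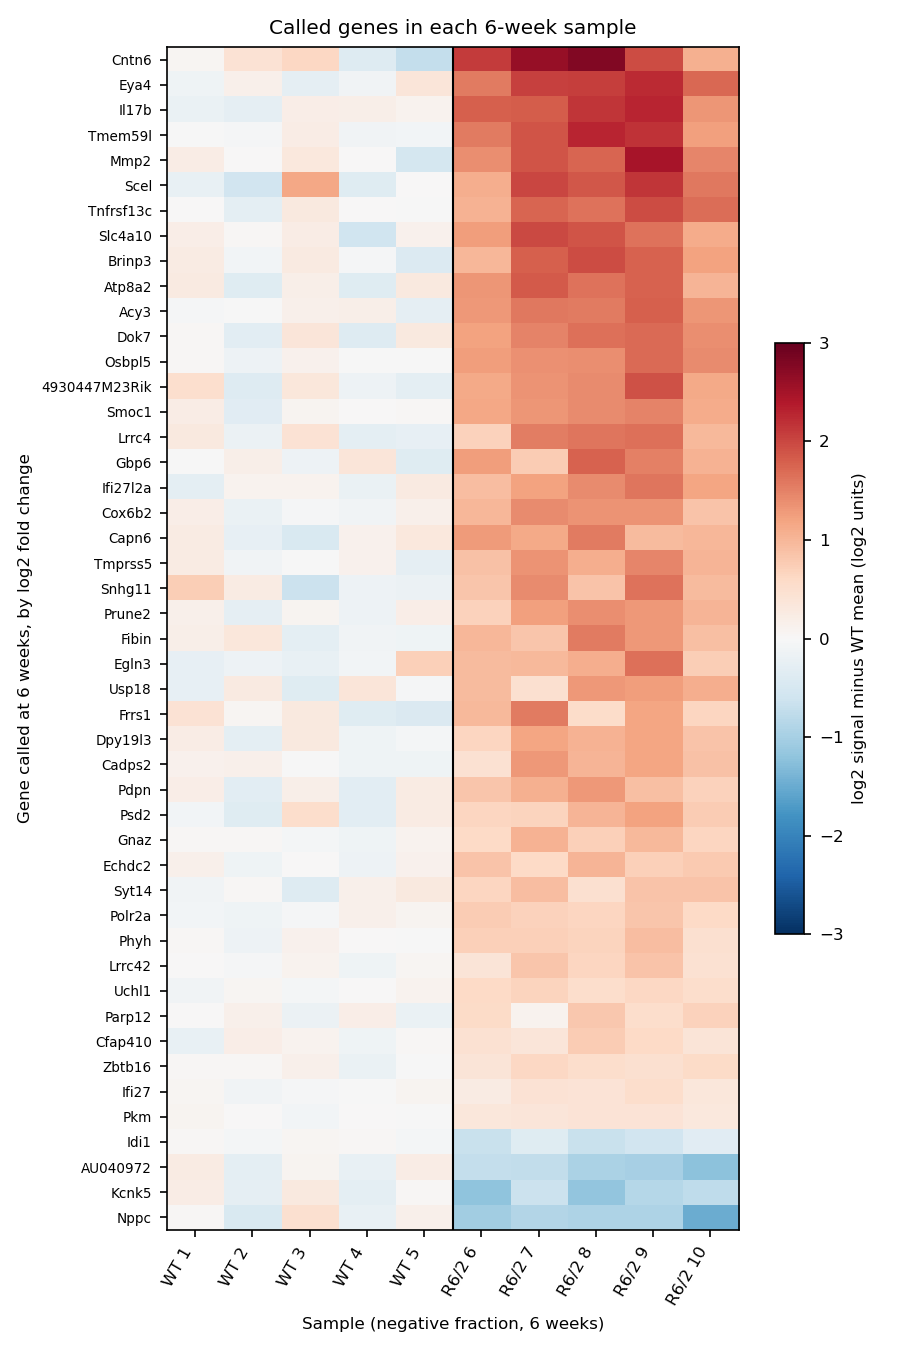
Log2 signal minus the WT mean for the 47 genes called at 6 weeks (rows, by log2 fold change) in the 10 samples of the negative fraction (columns). The 43 higher genes are red in the R6/2 samples and the 4 lower genes blue, and Scel in WT sample 3 and Parp12 in R6/2 sample 7 are the values that make a gene's groups overlap.

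The genes with the smallest p-values were Acy3, Eya4 and Osbpl5. Acy3 encodes an aminoacylase that removes acetyl groups from modified amino acids. Its level was 7.89, 7.91, 8.07, 8.10 and 7.66 in the WT samples and 9.22, 9.51, 9.48, 9.73 and 9.24 in the R6/2 samples. The gap between the groups, 1.12 from the highest WT to the lowest R6/2 value, exceeded the range of values within either group. The log2 difference was 1.51 ± 0.18 (SE), a 2.85-fold higher signal (limma adjusted p = 0.000368). Eya4, a transcriptional coactivator with phosphatase activity, was 5.72, 6.01, 5.57, 5.73 and 6.20 in WT and 7.41, 7.90, 7.92, 8.08 and 7.58 in R6/2. All R6/2 values were at least 1.21 above the highest WT value, and the log2 difference was 1.93 ± 0.23 (adjusted p = 0.000368). A further probe set of Eya4 that was bright enough had a difference of 1.5. Osbpl5, a lipid transfer protein at contacts between the endoplasmic reticulum and the cell surface, was 7.33 to 7.59 in WT and 8.72 to 9.18 in R6/2, a log2 difference of 1.43 ± 0.18 (adjusted p = 0.000636).

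**Figure D3:**
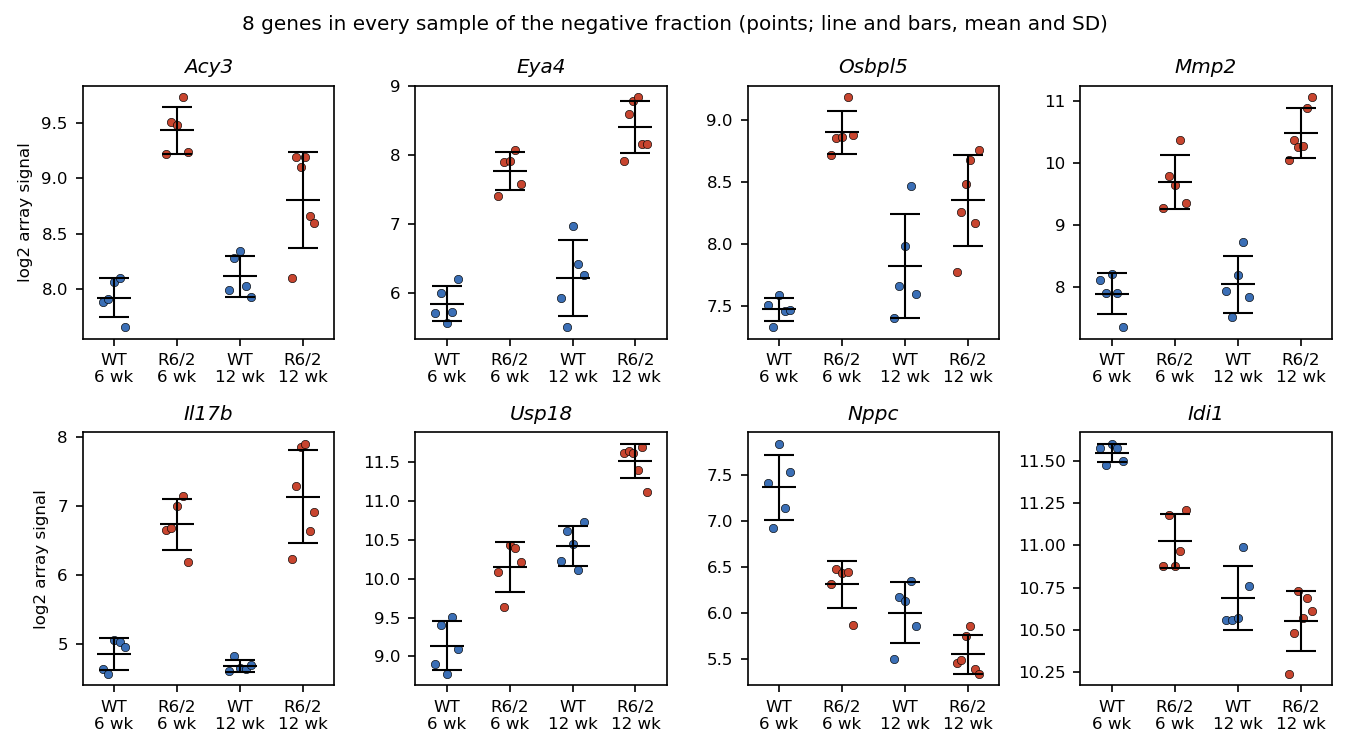
Log2 array signal of 8 genes in every sample of the negative fraction at 6 and 12 weeks, WT in blue and R6/2 in red, with the mean and SD in black. At 6 weeks no R6/2 point of these 8 genes lies within the range of the WT points.

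Mmp2, a protease that degrades collagen and gelatin of the matrix, was 8.11, 7.90, 8.21, 7.90 and 7.36 in WT and 9.28, 9.78, 9.65, 10.37 and 9.36 in R6/2. R6/2 sample 9 was the highest, the groups did not overlap, and the log2 difference was 1.79 ± 0.24 (adjusted p = 0.000822). Il17b, a secreted cytokine of the interleukin family, was 4.65, 4.58, 5.07, 5.03 and 4.97 in WT and 6.65, 6.68, 7.01, 7.15 and 6.19 in R6/2, so that every WT value and no R6/2 value was under the brightness threshold of 5.6. It rose by 1.88 ± 0.25 (adjusted p = 0.000822). Smoc1, a calcium-binding protein of the basement membrane, was 9.19 to 9.77 in WT and 10.64 to 11.03 in R6/2, a rise of 1.30 ± 0.22 (adjusted p = 0.00615). Fibin, a secreted protein, rose by 1.12 ± 0.21, and the membrane protease Tmprss5 by 1.16 ± 0.19 (adjusted p = 0.0183 and 0.00526). Both were picked after their values were seen. No member of the collagen and laminin list was called: 33 were tested, 3 of the differences were positive (beside 53.1% of all differences), and the median was -0.30. R6/2 sample 7 had a list mean of 7.57, against 7.95 to 8.23 in the other R6/2 samples, and without it the median was -0.19. Lamc1, a laminin chain of the vessel wall, had the smallest p of that list and was 11.21 to 11.48 in WT and 10.67 to 11.17 in R6/2 (log2 difference -0.38 ± 0.14, adjusted p = 0.491).

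Cntn6, an immunoglobulin-type adhesion protein of neurons, had the largest difference, at 4.33, 4.71, 4.90, 3.90 and 3.57 in WT and 6.38, 6.90, 7.05, 6.25 and 5.35 in R6/2. WT levels were below the brightness threshold, and a gap of 0.45 separated the groups (log2 difference 2.11 ± 0.38, adjusted p = 0.011). Slc4a10, a sodium and bicarbonate transporter, was 6.80, 6.65, 6.84, 6.01 and 6.74 in WT and 7.86, 8.59, 8.49, 8.23 and 7.71 in R6/2, a rise of 1.57 ± 0.23 (adjusted p = 0.00224). Tmem59l, a membrane protein of the nervous system, was 5.55 to 5.87 in WT and 6.88 to 7.94 in R6/2, a rise of 1.82 ± 0.28 (adjusted p = 0.00264). Brinp3, named for its induction by retinoic acid in neural cells, rose by 1.54 ± 0.31, the synaptic adhesion gene Lrrc4 by 1.29 ± 0.28 and the phospholipid flippase gene Atp8a2 by 1.52 ± 0.33 (adjusted p = 0.0298, 0.0432 and 0.0495). Brinp3, Lrrc4 and Atp8a2 kept the call in 14, 8 and 5 of the 21 fits that leave out an array.

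Of the 20 pan-neuronal genes tested, 2 were called higher (0.345% of all genes were) and 13 had a positive difference, with a median of 0.06; 53.1% of all differences were positive. Uchl1, a ubiquitin hydrolase that is abundant in neurons, was 11.09, 11.27, 11.14, 11.21 and 11.30 in WT and 11.81, 11.88, 11.72, 11.83 and 11.73 in R6/2. The difference of 0.59 ± 0.10 was small and the groups were tight and apart (adjusted p = 0.00615). Snhg11, a long noncoding RNA of neurons, was 7.66 to 9.03 in WT and 9.14 to 9.94 in R6/2, a rise of 1.14 ± 0.24 (adjusted p = 0.0374). Snhg11 kept the call in 10 of the 21 fits that leave out an array. A limma fit of the 6-week samples alone did not call it (adjusted p = 0.0541). In a limma fit of all 3 fractions at 6 weeks neither Snhg11 nor Uchl1 was called (adjusted p = 0.284 and 0.173). Without R6/2 sample 7 only 1 of the 20 was called higher, beside 0.272% of all genes. With all samples Uchl1 was also the only member called among 30 proteasome and autophagy genes, beside 0.345% of all genes called higher. The neuroblast list had no call among 18 genes and a median of 0.07, and neither did the medium spiny neuron list among 15 genes, with a median of -0.01. Cadps2, of vesicle release, and the synaptotagmin gene Syt14, both chosen after their values were seen, rose by 0.97 ± 0.20 and 0.75 ± 0.16.

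Single genes of signalling and transcription were called. Polr2a, the largest subunit of RNA polymerase II, was 10.77, 10.73, 10.81, 11 and 10.93 in WT and 11.61, 11.54, 11.49, 11.69 and 11.45 in R6/2. The log2 difference of 0.71 ± 0.09 was smaller than that of most called genes and 0.45 separated the groups (adjusted p = 0.000636), and the other probe set of Polr2a had a difference of 0.97. Tnfrsf13c, the receptor for the B cell survival factor BAFF, was 8.53 to 9.12 in WT and 9.87 to 10.80 in R6/2, a rise of 1.61 ± 0.26 (adjusted p = 0.00526). Dok7, an adaptor of the muscle-specific receptor kinase, was 6.08 to 6.84 in WT and 7.67 to 8.16 in R6/2, a rise of 1.48 ± 0.25 (adjusted p = 0.00615). Zbtb16, a zinc finger repressor that glucocorticoids induce, was 8.07 to 8.42 in WT and 8.65 to 8.89 in R6/2 (0.51 ± 0.11, adjusted p = 0.0494). It was the only one called of 19 glucocorticoid-induced genes, whose median was 0.00, where 0.345% of all genes were called higher. Prune2 rose by 1.13 ± 0.17 (adjusted p = 0.00224) and Capn6, a calpain relative without protease activity, by 1.18 ± 0.20 (adjusted p = 0.00747), from WT levels under the brightness threshold. In 5 of the 43 higher genes (Il17b, Capn6, Cntn6, 4930447M23Rik and Scel) the WT means at both ages were under 5.6, so these genes were tested only because their R6/2 levels were higher, and their differences are measured against a signal near background.

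Metabolic genes were called one at a time. Pkm, pyruvate kinase of glycolysis, was 11.37 to 11.52 in WT and 11.77 to 11.85 in R6/2, a rise of 0.36 ± 0.08 (adjusted p = 0.0414), the smallest called. It was the only one of 23 glycolysis genes called, where 0.345% of all genes were called higher. Of the 23 genes 4 lay above WT without overlap (beside 3.38% of all genes). Phyh, which starts the breakdown of branched fatty acids in peroxisomes, was 9.96 to 10.24 in WT and 10.60 to 11.05 in R6/2, a rise of 0.70 ± 0.14 (adjusted p = 0.031). Chosen after their values were seen, Cox6b2, a testis-type subunit of cytochrome oxidase, rose by 1.20 ± 0.18, and Egln3, an oxygen-sensing prolyl hydroxylase, by 1.09 ± 0.22. The 28 oxidative phosphorylation genes had no call and a median of 0.04.

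Interferons switch on antiviral genes through receptors that activate STAT proteins, and Usp18 is both a target and a brake of that response, since it removes the ubiquitin-like protein ISG15 and binds the receptor. Of 32 interferon-stimulated genes tested 2 were called higher, beside 0.345% of all genes, and none lower. For 25 of the 32 the difference was positive, beside 53.1% of all genes, and the median was 0.27. Ifi27l2a was 7.56, 7.95, 7.94, 7.65 and 8.12 in WT and 8.77, 9.05, 9.27, 9.44 and 9.02 in R6/2, without overlap. Its log2 difference was 1.26 ± 0.20 (adjusted p = 0.00478). Usp18 was 8.90, 9.41, 8.78, 9.51 and 9.10 in WT and 10.08, 9.63, 10.43, 10.39 and 10.22 in R6/2. R6/2 sample 7 was the lowest of the R6/2 values and stood 0.12 above the highest WT value (1.01 ± 0.17, adjusted p = 0.00643). Called genes outside the list that are known to respond to interferon were chosen after their values were seen. They were Gbp6, a guanylate-binding GTPase (1.27 ± 0.27, adjusted p = 0.0414), Ifi27 (0.39 ± 0.08, adjusted p = 0.0368) and Parp12, an ADP-ribosyltransferase (0.54 ± 0.12, adjusted p = 0.0495). Gbp6, Ifi27 and Parp12 kept the call in 7, 9 and 4 of the 21 fits that leave out an array. The groups of Parp12 overlapped, and a limma fit of the 6-week samples alone did not call it (adjusted p = 0.082).

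The interferon list depended on R6/2 sample 7. The mean of the list was 7.83, 8.15, 7.64, 8.08 and 7.86 in WT and 8.49, 7.25, 8.64, 8.49 and 8.34 in R6/2 samples 6 to 10, so sample 7 lay below every WT sample and the other 4 R6/2 samples lay above them all. Without sample 7, which also had the low endothelial markers, 7 of 32 members were called higher, where 0.272% of all genes were called higher and 0.0321% lower, and the median was 0.54. The members called then were Ifi27l2a, Usp18, Ifit1, Ifit3, Irf9, Oasl2 and Rtp4, the last 5 named after their values were seen. Ifit3, which binds viral RNA together with Ifit1, was 8.73, 9.18, 8.58, 9.11 and 8.92 in WT and 10.01, 8.67, 10.28, 10.21 and 9.76 in R6/2. Its log2 difference was 0.88 ± 0.26 with all samples (adjusted p = 0.261) and 1.16 ± 0.20 without sample 7 (adjusted p = 0.0112). Ifit1 was 8.68, 9.17, 8.54, 9.05 and 8.54 in WT and 9.78, 8.28, 10.30, 9.82 and 9.85 in R6/2, and its difference was 1.14 ± 0.18 without sample 7 (adjusted p = 0.00796). None of the 16 interferon receptor and sensor genes was called with all samples (median -0.12), nor was any of 17 antigen presentation genes (median -0.07). Without sample 7 these medians were 0.03 and 0.14.

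The promoters of these genes are shown because the factor that interferon activates binds paired GAAA half-sites. The window around the start of transcription was searched on both strands for GAAA, any 2 bases and GAAA (GAAANNGAAA), and a gene was counted when any of its windows held it. Of the 32 list members 23 had a window in the RefSeq promoter table, and 13 of these held the motif (56.5%), against 3.51% of 10087 tested genes with a window. The list was made of known interferon-stimulated genes, so this share describes the list and not the R6/2 effect. Ifit1 (GRCm38.p6, chr19:34640639-34640938, plus strand) and Ifit3 (GRCm38.p6, chr19:34583279-34583578, plus strand) each held it at 2 places, on the opposite strand, and read from RefSeq they were, 5′ to 3′ with the motif in capitals:
Ifit1: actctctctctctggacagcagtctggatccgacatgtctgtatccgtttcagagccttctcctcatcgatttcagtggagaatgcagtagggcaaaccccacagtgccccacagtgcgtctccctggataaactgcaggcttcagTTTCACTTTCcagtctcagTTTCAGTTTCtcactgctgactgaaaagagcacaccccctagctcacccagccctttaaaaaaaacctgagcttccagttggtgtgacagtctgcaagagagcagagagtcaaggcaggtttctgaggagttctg
Ifit3: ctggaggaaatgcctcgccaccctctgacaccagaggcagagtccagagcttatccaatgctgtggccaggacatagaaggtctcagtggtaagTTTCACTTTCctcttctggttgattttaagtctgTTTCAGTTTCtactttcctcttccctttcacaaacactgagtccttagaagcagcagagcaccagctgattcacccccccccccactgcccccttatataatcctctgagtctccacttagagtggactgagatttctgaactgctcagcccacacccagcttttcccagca
Of the 47 called genes 36 had a window, and 2 of these held this motif (5.56%). A match is a stretch of letters and not a measured site.

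Nppc, the precursor of C-type natriuretic peptide, was 7.41, 6.92, 7.84, 7.14 and 7.53 in WT and 6.32, 6.48, 6.44, 6.45 and 5.87 in R6/2. It fell by 1.05 ± 0.18 on the log2 scale (adjusted p = 0.00615), R6/2 sample 10 being the lowest, and kept its call without any single array. Kcnk5, a background potassium channel whose call held in 8 of the 21 fits that leave out an array, was 7.62, 7.12, 7.69, 7.11 and 7.43 in WT and 6.19, 6.74, 6.22, 6.54 and 6.64 in R6/2 (log2 difference -0.93 ± 0.20, adjusted p = 0.0414). AU040972, a transcript with no assigned function here, was 6.98 to 7.52 in WT and 6.04 to 6.56 in R6/2 (-0.93 ± 0.18, adjusted p = 0.0197).

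The fourth lower gene was Idi1, isopentenyl diphosphate isomerase of the cholesterol pathway. It was 11.58, 11.48, 11.60, 11.58 and 11.50 in WT and 10.88, 11.18, 10.88, 10.97 and 11.21 in R6/2, and the log2 difference was -0.52 ± 0.11 (adjusted p = 0.0328). Idi1 kept its call in 13 of those 21 fits. It was the only one called of 20 cholesterol synthesis genes, where 0.0321% of all genes were called lower. Of the 20 genes 19 had a negative difference, with a median of -0.29, where 53.1% of all differences were positive. In 6 of the 20, all 5 R6/2 values lay below all 5 WT values (beside 1.44% of all genes): Idi1, Cyp51, Msmo1, Dhcr7, Fdft1 and Fdps, all but Idi1 named after their values were seen. Msmo1, a methyl sterol oxidase, was 11.56, 11.32, 11.64, 11.54 and 11.49 in WT and 10.81, 11.03, 10.83, 10.95 and 11.15 in R6/2 (-0.56 ± 0.17, adjusted p = 0.273). Cyp51, a sterol demethylase, was 11.64, 11.44, 11.74, 11.62 and 11.58 in WT and 10.76, 11.35, 10.89, 11.12 and 11.28 in R6/2 (-0.52 ± 0.14, adjusted p = 0.175). Srebf2, the transcription factor that switches the pathway on, had a difference of 0.03 ± 0.14. The mean of the list was 10.59 to 10.79 in WT and 10.30 to 10.59 in R6/2, with WT sample 2 and R6/2 sample 7 both at 10.59. Without R6/2 sample 7, Idi1 remained the only member called.

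Promoters of this pathway are shown because SREBP acts there beside NF-Y, which binds the CCAAT box. Of the 20 genes 16 had a window, and all 16 held CCAAT on either strand, against 42.9% of the 10087 tested genes with a window. The list was made of known pathway genes, so this share too describes the list and not the R6/2 effect. The windows of Idi1 (GRCm38.p6, chr13:8885356-8885655, plus strand), Cyp51 (GRCm38.p6, chr5:4104648-4104947, minus strand) and Msmo1 (GRCm38.p6, chr8:64733529-64733828, minus strand), 5′ to 3′ from RefSeq and with CCAAT or its complement ATTGG in capitals, were:
Idi1: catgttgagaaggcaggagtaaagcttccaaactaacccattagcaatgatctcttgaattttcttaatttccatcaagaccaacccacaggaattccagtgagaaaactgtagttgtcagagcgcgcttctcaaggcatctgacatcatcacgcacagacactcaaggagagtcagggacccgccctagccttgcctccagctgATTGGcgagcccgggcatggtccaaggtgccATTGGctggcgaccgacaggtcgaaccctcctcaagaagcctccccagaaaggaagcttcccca
Cyp51: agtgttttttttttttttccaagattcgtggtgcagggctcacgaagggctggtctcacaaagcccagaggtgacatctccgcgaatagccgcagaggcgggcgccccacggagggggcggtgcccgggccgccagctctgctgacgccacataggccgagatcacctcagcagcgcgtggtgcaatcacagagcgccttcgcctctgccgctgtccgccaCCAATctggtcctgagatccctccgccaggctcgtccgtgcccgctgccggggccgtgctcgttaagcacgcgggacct
Msmo1: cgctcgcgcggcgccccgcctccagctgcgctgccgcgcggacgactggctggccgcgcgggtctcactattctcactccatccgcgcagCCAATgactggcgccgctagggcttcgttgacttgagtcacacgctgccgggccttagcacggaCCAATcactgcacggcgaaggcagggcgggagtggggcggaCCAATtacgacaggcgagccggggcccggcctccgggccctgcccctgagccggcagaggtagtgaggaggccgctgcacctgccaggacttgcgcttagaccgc
Idi1 held the box at 2 places, Cyp51 at 1 and Msmo1 at 3. Of the 36 called genes with a window 13 held it (36.1%).

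The other lists had no call at 6 weeks. Their counts of positive differences stand beside 53.1% over all genes tested. Immediate early genes had 2 positive differences of 25 and a median of -0.29, and Fosl2, an AP-1 subunit, was 9.80 to 10.40 in WT and 9.04 to 9.92 in R6/2 (-0.53 ± 0.17, adjusted p = 0.379). VEGF and angiogenesis genes had 2 positive of 25 and a median of -0.35, a list that R6/2 sample 7 held at 7.61 against 8.57 to 8.87 in the other R6/2 samples, and the median was -0.08 without that sample. Protocadherin genes had 15 positive of 22 and a median of 0.24, and Pcdh10 was 8.50 to 9.38 in WT and 9.27 to 9.94 in R6/2 (0.63 ± 0.20, adjusted p = 0.331). Of 12 homeobox and developmental regulators bright enough to test, 5 were positive, and Six3 was 5.17 to 5.8 in WT and 5.91 to 6.48 in R6/2 (0.68 ± 0.22, adjusted p = 0.363). Of 24 potassium channel genes 15 were positive, with a median of 0.08 (Kcnk5 is not on that list). Among astrocyte markers S100b had the smallest p, at 10.33, 10.34, 11, 10 and 10 in WT and 10.99, 11.36, 11.37, 11.70 and 10.86 in R6/2 (0.92 ± 0.24, adjusted p = 0.155).

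A fit of the 10 samples at 6 weeks alone called more genes. It took the spread from these arrays only, among which correlations within a group were 0.982 to 0.994, against 0.950 to 0.993 among the arrays at 12 weeks. It called 215 genes, 174 higher (1.39% of the genes tested) and 41 lower (0.329%), and 44 of the 47 were among them. Of the 174 higher genes 139 were called higher at 12 weeks, beside 15.5% of all genes. The 139 include Il17b, Capn6, Cntn6, 4930447M23Rik and Scel, which passed the brightness filter only through their R6/2 levels, highest at 12 weeks. How many others of the 139 did so was not tested. Of the 41 lower genes 24 were called lower at 12 weeks, beside 10.7% of all genes. It called 4 interferon-stimulated genes (Ifi27l2a, Usp18, Mx2 and Ifit2) and 3 cholesterol synthesis genes (Idi1, Msmo1 and Fdps). Ifit2 was 9.10 to 9.26 in WT and 9.45 to 9.70 in R6/2 (0.40, adjusted p = 0.0251 in that fit). Without R6/2 sample 7 this fit called 217 genes, 149 of them shared with the 215.

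The 12-week samples gave the same contrast in other mice, although in a fit that shares the estimate of spread. At 12 weeks 1929 genes (15.5%) were called higher and 1339 (10.7%) lower. Of the 43 genes higher at 6 weeks 41 were called higher at 12 weeks and all 43 had a positive difference, with a median of 1.62. Both counts include 5 genes (Il17b, Capn6, Cntn6, 4930447M23Rik and Scel) with WT means under 5.6 at both ages. These 5 passed the brightness filter only through their R6/2 levels, which were highest at 12 weeks. The filter thus favoured their call at 12 weeks, and for them the later age is no separate check. The 41 made up 95.3% of the genes higher at 6 weeks and 2.13% of those higher at 12 weeks. The 2 that were not called at 12 weeks were Uchl1 (0.25, adjusted p = 0.0574) and Parp12 (0.24, adjusted p = 0.137). Of the 4 lower genes Kcnk5 was called lower (-0.63, adjusted p = 0.0179), and Nppc, Idi1 and AU040972 had differences of -0.45, -0.13 and 0.32. Idi1 in WT was 11.48 to 11.60 at 6 weeks and averaged 10.69 ± 0.19 (SD, n = 5) at 12 weeks, where R6/2 averaged 10.55 ± 0.18 (n = 6).

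The difference between the ages was itself tested and was called for 471 genes (3.77%) with a larger effect at 12 weeks and 59 (0.473%) with a smaller one. Among the 43 it was called larger for 15 and smaller for 1. Of the 15, Scel, Cntn6, Capn6 and 4930447M23Rik passed the brightness filter only through their R6/2 levels, which were highest at 12 weeks. The filter thus favoured a larger effect at 12 weeks in these genes. Scel, sciellin of the cornified envelope of skin, had the smallest p. It was 4.35, 4, 5.75, 4.22 and 4.59 in WT and 5.68, 6.58, 6.44, 6.73 and 6.16 in R6/2 at 6 weeks, where WT sample 3 overlapped the R6/2 range, and the log2 difference was 1.73 ± 0.33 (adjusted p = 0.0197). At 12 weeks WT averaged 3.52 ± 0.73 and R6/2 8.74 ± 0.35, a difference of 5.22, which is 3.48 above that at 6 weeks (adjusted p = 0.000155). Both WT means of Scel, as of Cntn6 and Capn6, were under the brightness threshold, and so were those of Brinp3 (5.11) and Tmem59l (5.21) at 12 weeks, so the sizes of these differences rest on signal near background. The differences of Brinp3 (1.54 and 4.75), Cntn6 (2.11 and 5.04), Tmem59l (1.82 and 4.23), Capn6 (1.18 and 2.95) and Slc4a10 (1.57 and 3.30) were likewise larger at 12 weeks. Osbpl5 was the exception, at 1.43 and 0.53, with a difference between the ages of -0.90 (adjusted p = 0.0493). Acy3 had effects of 1.51 and 0.69, and that difference missed the threshold (-0.82 ± 0.24, adjusted p = 0.0622). AU040972 differed between the ages by 1.25 (adjusted p = 0.00431). Eya4, Polr2a and Usp18 had effects of 1.93, 0.71 and 1.01 at 6 weeks and 2.19, 0.67 and 1.09 at 12 weeks, with differences between the ages of 0.26 ± 0.32, -0.04 and 0.08.

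**Figure D4:**
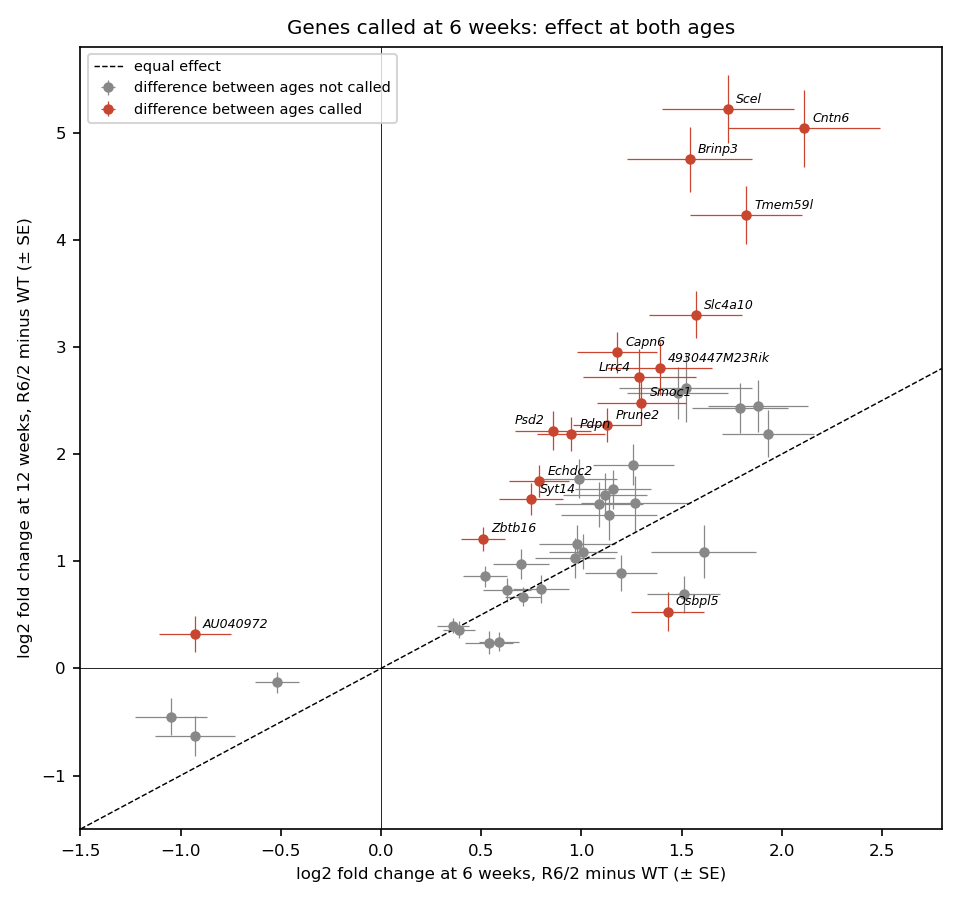
Log2 fold change (R6/2 minus WT, ± SE) at 6 weeks (horizontal) and 12 weeks (vertical) for the 47 genes called at 6 weeks, with genes in red where the difference between the ages was called and a dashed line of equal effect. 34 of the 43 higher genes lie above that line, and Scel (1.73 and 5.22) and Osbpl5 (1.43 and 0.53) are far from it on either side. The 34 include Il17b, Capn6, Cntn6, 4930447M23Rik and Scel, which passed the brightness filter only through their R6/2 levels, highest at 12 weeks.

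Marker lists were read at 12 weeks as well, where 15.5% of all genes were called higher and 10.7% lower; the difference of a list between the ages was not tested. Of 21 astrocyte markers 19 were called higher at 12 weeks, with a median of 1.99, where it was 0.33 at 6 weeks with none called. Endothelial markers had medians of -0.47 and -0.54 at 6 and 12 weeks, with 1 of 22 called lower at 12 weeks, and microglia markers -0.54 and -0.12. Of 17 pericyte and smooth muscle markers 15 were called lower (median -0.81), as were 11 of 15 fibroblast markers and 19 of 33 collagen and laminin genes. Genes whose effect was called larger at 12 weeks but which were not among the 47 included Mmd2, Qpct, Cnmd and Nlgn3, with effects of 0.05, 0.15, 0.85 and 0.03 at 6 weeks and 2.21, 2.33, 4.47 and 2.19 at 12 weeks. Their WT levels in the astrocyte fraction averaged 13.37, 9.15, 7.66 and 9.78. With the endothelial marker mean as a covariate 614 genes differed between the ages, 526 of them among the 530 without it; the part of the other marker shifts was not tested.

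In WT mice the 43 higher genes were spread over the sorted fractions. Their highest WT level was in the negative fraction for 17, in astrocytes for 15 and in microglia for 11, where the shares of all genes tested were 32.9%, 30.8% and 36.3%. For Il17b, Capn6, Cntn6 and Fibin the WT means were under 5.6 in all 3 fractions, so their place rests on signal near background. No share over all genes was computed for the count that follows, so it does not set the 43 apart. In 12 of the 43 the R6/2 level in the negative fraction was below the WT level in astrocytes. Pdpn, podoplanin, was the brightest of these in WT astrocytes and is named after its values were seen, at 9.37 to 9.95 in WT and 10.38 to 10.99 in R6/2 negative cells and 12.46 in WT astrocytes (log2 difference in the negative fraction 0.95 ± 0.17).

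Effects in the other fractions at 6 weeks were compared over 12356 genes in a fit of 30 arrays. That fit called 211 genes higher (1.71%) and 81 lower (0.656%) in negative cells. In astrocytes 132 genes (1.07%) were called higher and 73 (0.591%) lower, and in microglia 52 (0.421%) and 103 (0.834%). Of the 39 higher genes tested there, 18 were also called higher in astrocytes and 35 had a positive difference, with medians of 1.13 in the negative fraction and 0.43 in astrocytes. Acy3 rose by 1.39 in astrocytes (adjusted p = 4.86e-07), Mmp2 by 2.21 (3.48e-06), Polr2a by 0.88 (8.41e-08), Tmem59l by 1.63 (2.54e-05) and Tnfrsf13c by 2.04 (8.53e-05), all close to or above their rise in the negative fraction, and for these 5 the difference between the fractions was not called. In microglia 4 of the 39 were called higher, the interferon-responsive genes Usp18 (2.26), Ifi27l2a (2.04), Gbp6 (1.69) and Parp12 (0.48), and the median was 0.05.

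The difference between the negative and astrocyte effects was called for 11 genes (0.089%), with 657 at an unadjusted p below 0.05. Eya4 rose by 1.93 in negative cells and 0.53 in astrocytes, a difference of 1.40 ± 0.17 (adjusted p = 9.79e-05). Dok7 (1.48 and -0.09), Brinp3 (1.54 and -0.02) and Phyh (0.70 and 0.01) also had larger effects in negative cells, by 1.57, 1.57 and 0.69. Usp18 went the other way, with 1.01 in negative cells and 2.32 in astrocytes (-1.31, adjusted p = 0.0256). Dok7, Brinp3 and Phyh had WT astrocyte levels of 9.22, 9.35 and 11.67, above their R6/2 levels in the negative fraction. Among genes outside the 47, Foxf1, a transcription factor of mesenchyme, had a difference of -3.64 ± 0.49 (adjusted p = 0.000428), from 2.99 in astrocytes and -0.65 in negative cells. Ccnd1 (-1.22), Slc7a8 (-1.09) and Myb (-1.5) were called with it.

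The difference between the negative and microglia effects was called for 182 genes (1.47%). Of the 39 higher genes tested in this fit 19 were called with the larger effect in negative cells. Usp18 was called with the smaller effect there (-1.25, adjusted p = 0.00973). The difference was also called for 3 of the 4 lower genes. Eya4 was the clearest, with 1.93 in negative cells and 0.06 in microglia, a difference of 1.86 ± 0.17 (adjusted p = 2.35e-07). Polr2a (0.71 and -0.10), Pkm (0.36 and -0.16), Prune2 (1.13 and -0.07), Phyh (0.70 and -0.17) and Dok7 (1.48 and -0.03) had differences of 0.80, 0.52, 1.20, 0.87 and 1.51. Ifit2 rose by 2.27 in microglia and differed from the negative fraction by -1.87 (adjusted p = 1.83e-06). Olfm1, Srgap3 and Gprasp1 had differences from microglia of 1.30, 0.91 and 0.68. They were not among the 47 but were called in negative cells both in the fit of 3 fractions (adjusted p = 3.59e-07, 0.0219 and 0.000177) and in that of the 6-week samples alone.

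**Figure D5:**
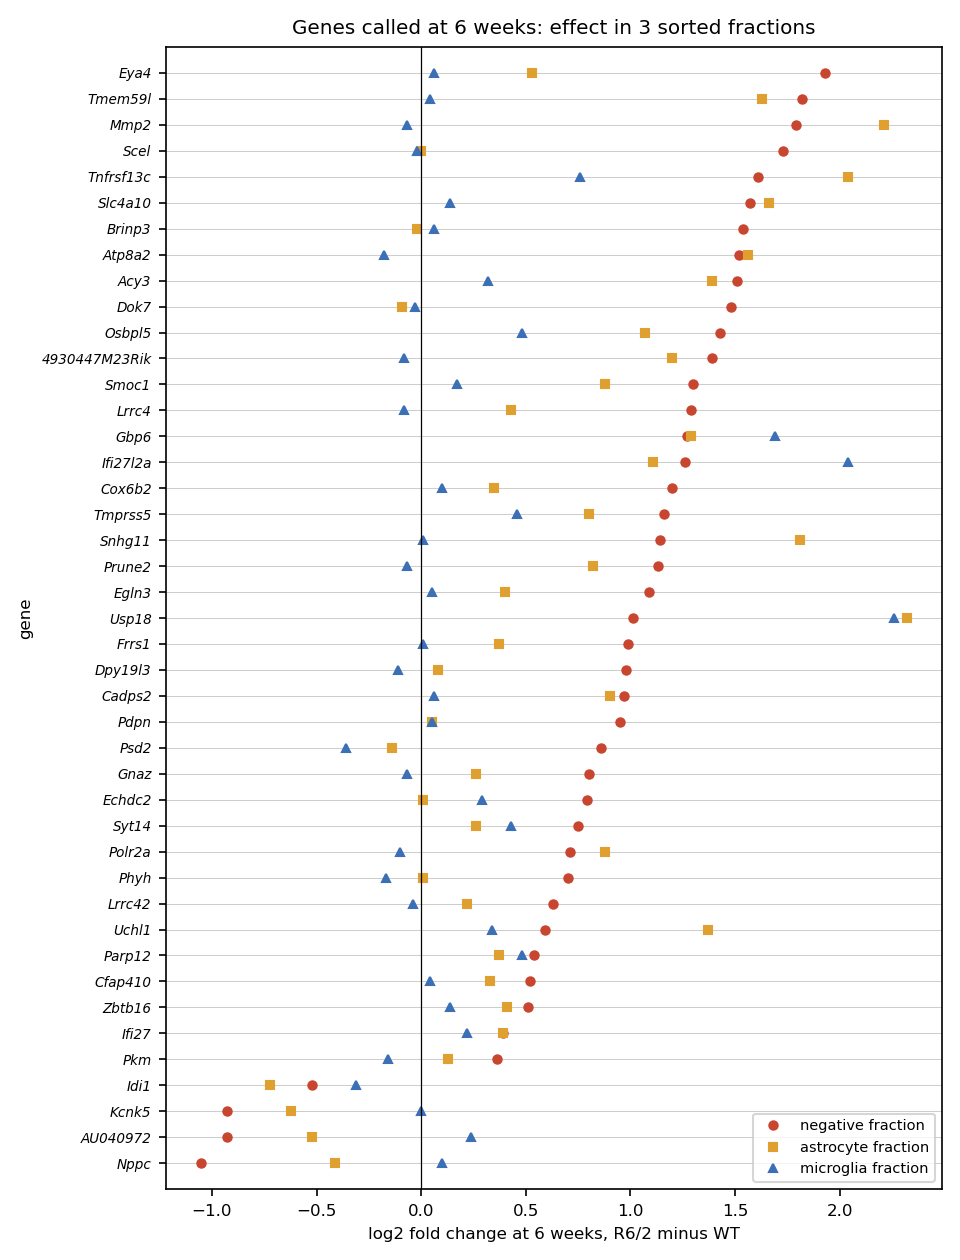
Log2 fold change (R6/2 minus WT) at 6 weeks in the negative (red circles), astrocyte (yellow squares) and microglia (blue triangles) fractions, for the 43 called genes that were tested in all 3. Squares lie near circles for genes such as Acy3 and Mmp2 and near 0 for Dok7, Brinp3 and Scel, and triangles lie near 0 for most genes but not for Usp18, Ifi27l2a and Gbp6.

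The cholesterol and interferon lists were also read in the other fractions. In the fit of 3 fractions 3 of 20 cholesterol synthesis genes were called lower in negative cells (median -0.29), beside 0.656% of all genes, 13 in astrocytes (median -0.54), beside 0.591%, and none in microglia (median -0.15), beside 0.834%. The difference between negative cells and astrocytes was called for none of the 20, beside 0.089% of all genes. Of these 20 differences (negative minus astrocyte) 14 were positive, with a median of 0.22. Of 32 interferon-stimulated genes 5 were called higher in negative cells (median 0.28), beside 1.71% of all genes, 10 in astrocytes (median 0.65), beside 1.07%, and 18 in microglia (median 0.87), beside 0.421%. The effect on 1 of the 32 was called different between negative cells and astrocytes, beside 0.089% of all genes. Between negative cells and microglia 10 of the 32 were called different, beside 1.47% of all genes. All of these calls were for the smaller effect in negative cells.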

How the data were processed

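Each sample was hybridised to an Affymetrix mouse array of 45101 probe sets, and the values the authors deposited are log2 signals normalised by RMA with the affy package, per the submitters' processing notes, which give no versions. RMA sets the arrays to a common distribution, so a shift shared by most genes is removed. Array medians of the 111 arrays ran from 6.261 to 6.651. Genes were named from the platform annotation: 34958 probe sets had 1 symbol, 932 several and 9211 none, and the brightest probe set stood for each of 18194 genes. Probe sets below the 40th percentile of mean signal were left out.

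The 4 groups of negative cells (21 arrays, 12480 genes) entered 1 linear model with moderated variances (limma 3.58.1 under R 4.3.3, two-sided tests, Benjamini-Hochberg adjustment), and a second fit held the 3 fractions at 6 weeks (30 arrays). The scripts were tested on simulated data. Genes were named by a rule: the 15 largest changes in each direction among called genes without overlap, up to 4 called members of a list (or its smallest p), up to 6 called genes of each difference between ages or fractions plus 4 not called at 6 weeks, and Htt, Slc1a2 and Itgam. Others are said to be picked after their values were seen. The members and gene lists were chosen with earlier results of these data known. Promoter windows of 300 bases came from RefSeq (GRCm38.p6). Alternatives covered the filter, probe-set choice, scaling, array weights, marker covariates, the samples fitted and each array left out.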

Additional observations from a re-analysis of the deposited data

Results flagged for a closer look

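Dixon's test, at a critical ratio of 0.71 for 5 samples, was applied to 122 groups of values and marked 6, where chance gives about 1 in 20. It marked WT sample 4 for Slc4a10 (ratio 0.77), WT sample 5 for Egln3 (0.83), WT sample 3 for the microglia marker mean (0.72) and for Xist (0.92), R6/2 sample 10 for Nppc (0.73) and R6/2 sample 7 for the endothelial marker mean (0.83).

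The effect of R6/2 differed between the ages, by the interaction term of the limma fit, for 17 of the 47 called genes. The 12-week minus 6-week differences were -0.90 for Osbpl5, 1.73 for Slc4a10, 1.15 for Prune2, 2.41 for Tmem59l, 1.18 for Smoc1, 1.78 for Capn6, 1.24 for Pdpn, 2.93 for Cntn6, 1.41 for 4930447M23Rik, 3.48 for Scel, 1.25 for AU040972, 0.96 for Echdc2, 3.21 for Brinp3, 0.82 for Syt14, 1.44 for Lrrc4, 0.70 for Zbtb16 and 1.37 for Psd2. The effect also differed between negative cells and astrocytes, by 1.40 for Eya4, 1.57 for Dok7, -1.31 for Usp18, 1.57 for Brinp3 and 0.69 for Phyh.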

How the results depend on the processing

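No called gene took the other sign under any setting run. The medians of 19 gene lists and the values of 4 genes that were not called (Mmd2, Nlgn3, Slc1a2 and Xist) did so under at least 1 setting, among them the endothelial median (-0.47 with all samples, 0.02 without R6/2 sample 7) and that of blood-brain barrier genes (-0.29 and 0.01). The 47 genes called at 6 weeks became 29 with arrays centred again, 689 with array weights, 215 with the 6-week samples only, and 2 when tested against a change of 0.5. Settings chosen after seeing the data gave 28 without R6/2 sample 7 and WT sample 3, 217 with 6-week samples only and without sample 7, 128 likewise without both, and 292 in the fit of 3 fractions. The 530 genes that differed between ages became 336 with a filter at the 60th percentile and 2431 with array weights. The 11 genes of the negative minus astrocyte difference became 32 with array weights and 18 with the endothelial covariate. The 182 of the negative minus microglia difference became 119 with probe sets averaged, 92 with arrays centred and 108 with quantile normalisation repeated. Leaving out each array gave 22 to 70 genes at 6 weeks, 2704 to 3698 at 12 weeks, 384 to 904 for the age difference, 7 to 14 for negative minus astrocyte and 95 to 267 for negative minus microglia. The highest age count came without R6/2 12-week sample 11 (904). The astrocyte count was 7 without WT negative sample 2 or 4, and the microglia count was 104, 101 and 104 without WT negative samples 2 and 4 and R6/2 negative sample 9, and 95, 98 and 109 without WT microglia samples 3 and 4 and R6/2 microglia sample 10. The cause was not tested in these cases. Among values of single genes, list medians and counts of list members called, 5990 were classed as unchanged. A change of sign did not by itself take a list median, or a gene called in neither fit, out of that class. Of the single genes' values 404 were no longer past the threshold and 60 came to pass it. The 280 that moved were list medians, by more than the spread between WT samples, or counts of list members called.

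WT and R6/2 samples share no replicate number, so the 6-week comparison has no paired fit. Numbers recur across fractions, where deviations correlated by -0.03 to 0.45 (negative and astrocyte) and 0.04 to 0.17 (negative and microglia), with the own number the best match in 7 of 10 and 10 of 10. With the replicate block the counts were 14 in place of 11 and 231 in place of 182. The number of arrays and signal near background limit the precision of dim genes such as Cntn6 and Il17b.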

Other observations

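In the fit of the 6-week samples alone, some neuronal genes were called that the fit of both ages did not call. They were picked after their values were seen. Olfm1, olfactomedin 1 of the synapse, was 8.68, 8.49, 8.91, 8.60 and 8.39 in WT and 9.41, 10.06, 10.06, 9.99 and 10.12 in R6/2, without overlap (log2 difference 1.32, limma adjusted p = 0.00324, and 0.16 in the fit of both ages). Gprasp1, a sorting protein for G protein-coupled receptors, was 9.44 to 9.58 in WT and 9.98 to 10.19 in R6/2 (0.54, adjusted p = 0.00355, and 0.16 in the fit of both ages). Pcdh15, a protocadherin, and Onecut2, a homeobox factor, had differences of 1.59 and 1.14 (adjusted p = 0.00576 and 0.00484 at 6 weeks alone, 0.356 and 0.669 with both ages).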
